A study of Mus musculus with 30 samples.

Results

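The effect of the Her2/Neu oncogene on the mouse mammary gland was described here as the average of its effect in glands with and in glands without the type I interferon receptor chain IFNAR1. All 30 arrays of the study entered this comparison, 15 from glands that carry the oncogene and 15 from glands that do not, and 11463 genes were compared. The oncogene groups were Her2/Neu+ (n = 6) and Her2/Neu+/IFNAR1-/- (n = 9), and the groups without it were WT (n = 7) and IFNAR1-/- (n = 8). All were inguinal mammary glands of mice on the 129sv background, taken at 19 weeks of age. The promoter that drives the transgene, how the receptor gene was deleted, the histology of the glands and the presence of tumours are not given in the sources used here. The labels number the glands as separate samples and do not say whether each is from its own mouse, so the p-values rest on the spread among the numbered samples, part of which may be technical. The difference of a gene is the mean of the Her2/Neu+ and Her2/Neu+/IFNAR1-/- group means minus the mean of the WT and IFNAR1-/- group means, so each receptor state has equal weight. The series is about the part of the body's own type I interferon in cancers that this oncogene starts, and the pooled difference is an average over both receptor states, to which a gene may contribute mainly through one of them.

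Her2/Neu, also called ERBB2, is a receptor tyrosine kinase that pairs with the other ERBB receptors and signals through the RAS to ERK and the PI3K to AKT pathways. ERK signalling switches on immediate early genes, the PEA3 family of ETS transcription factors and its own feedback phosphatases. Type I interferons act through a receptor of IFNAR1 and IFNAR2 and switch on antiviral genes, many of which carry interferon-stimulated response elements in their promoters. The mammary gland is a network of luminal and basal epithelium in a bed of fat cells, fibroblasts, vessels and immune cells, and whole gland RNA mixes all of them. For every gene below, fewer cells of a type and less RNA per cell cannot be told apart.

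A value is the log2 ratio of gland RNA, labelled with Cy5, to a universal mouse reference RNA, labelled with Cy3, so a value below 0 is a level below that of the reference. Values stop at a size of 6. Each array gave between 17485 and 20801 values, with array medians between -0.12 and -0.00. Adipoq, the fat cell hormone adiponectin, stood at the limit of 6 on all 30 arrays. Krt18, a luminal keratin, lay between -2.17 and 1.75 with the oncogene and between -1.18 and 1.42 without it. Krt5, a basal keratin, had a median of 3.69 on 10 arrays with the oncogene and of 3.76 on 12 without it, so markers of fat and of both epithelial layers were measured in both. On each array many values, most of them near 0, were shared to the last digit by several probes. These repeated values numbered 7682 ± 2310 per array with the oncogene and 5667 ± 1711 without it (SD, n = 15 each), and how they arose is not given. Her2/Neu+ 114 stood apart by high cell cycle and B cell markers and low basal, fat and mitochondrial genes. Its mean of luminal epithelial genes, each centred, was low too at -1.38, but IFNAR1-/- 41 and 42 were lower at -1.48 and -1.40. Skeletal muscle markers were high on Her2/Neu+/IFNAR1-/- 106 and on IFNAR1-/- 41, 42 and 44.

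Mouse Erbb2 itself was read by 10 probes and lay between -0.10 and 1.31, median 0.36, with the oncogene and between -0.37 and 1.35, median 0.10, without it. The ranges overlapped almost fully, with a difference of 0.09 ± 0.18 (SE, adjusted p = 0.818). Ifnar1 had a difference of 0.60 ± 0.40 (adjusted p = 0.436) and Ifnar2 of -0.36 ± 0.23 (adjusted p = 0.421). Whether these probes detect the transgene, or lie in the deleted part of Ifnar1, is not given, so they check nothing about the genotypes.

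In the pooled comparison 196 genes rose and 99 fell with the oncogene. These 295 genes are 2.57% of the genes tested, with 1.71% up and 0.864% down, in a limma fit over all 30 arrays at a Benjamini-Hochberg adjusted p under 0.05. At an unadjusted p under 0.05 there were 1291 rises and 866 falls. The differences of the genes that rose lay between 0.49 and 5.25 with a median of 1.19, and those of the genes that fell between -0.52 and -3.29 with a median of -0.90. Of the rises 138 of 196 reached 2-fold and 32 reached 4-fold, against 33 and 2 of the 99 falls. The genes that rose had a median level of 0.08 with the oncogene and of -1.21 without it, below the reference RNA. The genes that fell had a median level of -0.31 with the oncogene and of 0.51 without it. Over all genes the median difference was 0.07, and 57.4% were positive. After quantile normalization the median was 0.02 and the split of calls was 156 up and 143 down. Falls outnumbered rises with probes repeated on at most 3 arrays (96 up, 122 down), with runs of block numbers as a fixed block (23 up, 99 down) and in the second 15 arrays fitted alone (367 up, 402 down), so the surplus of rises was not kept under every setting. The fixed-block fit takes its oncogene difference only from runs that held glands both with and without the oncogene. Leaving out single arrays gave 149 calls (without WT 53) to 438 calls (without Her2/Neu+ 115), and 123 genes passed in all 30 such fits. Of 68 genes with a call that were chosen for naming, 34 lost it with runs of block numbers as a random block, and they are listed with that fit.

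The oncogene effect was then read in each receptor state apart, on arrays that the other state does not share. Of the 295 genes 294 had the same direction with IFNAR1 (Her2/Neu+ minus WT) and without it (Her2/Neu+/IFNAR1-/- minus IFNAR1-/-), a count that the pooling itself favours. Over all genes 56.4% had the same direction. Of the 1383 genes with an unadjusted p under 0.05 in Her2/Neu+ minus WT, 968 (70.0%) had the same direction without the receptor, and of 2121 such genes in Her2/Neu+/IFNAR1-/- minus IFNAR1-/-, 1372 (64.7%) had it with the receptor. Across genes, which are not independent, the correlation of both differences was r = 0.263 (Spearman's rho 0.225). Most of the 295 passed in the pooled comparison only: 14 passed where IFNAR1 was intact (13 arrays), 79 where it was missing (17 arrays), 10 in both and 212 in neither.

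The sizes of the changes were then set side by side in the receptor states, whose medians over all genes were -0.02 in Her2/Neu+ minus WT and 0.15 in Her2/Neu+/IFNAR1-/- minus IFNAR1-/-. The median rise was 1.16 in Her2/Neu+ minus WT and 1.28 in Her2/Neu+/IFNAR1-/- minus IFNAR1-/-, and 91 of 196 rises were larger in the first. For the genes that fell the medians were -1.08 and -0.79, and 70 of 99 falls were larger with the receptor intact, the direction in which the medians over all genes also lie apart. Tested gene by gene as an interaction, 2 genes passed (0.0174% of those tested), 1 of them among the 295, so for the other 294 a difference between receptor states was not shown. The exception was Flywch2, a gene of unclear function that is named here after its values were seen. It had a difference of 0.28 ± 0.37 with the receptor and of -2.78 ± 0.31 without it (interaction 3.06 ± 0.48, adjusted p = 0.0282), and 7 of 8 of its values with the oncogene and 7 of 11 without it were repeated values.

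**Figure D1:**
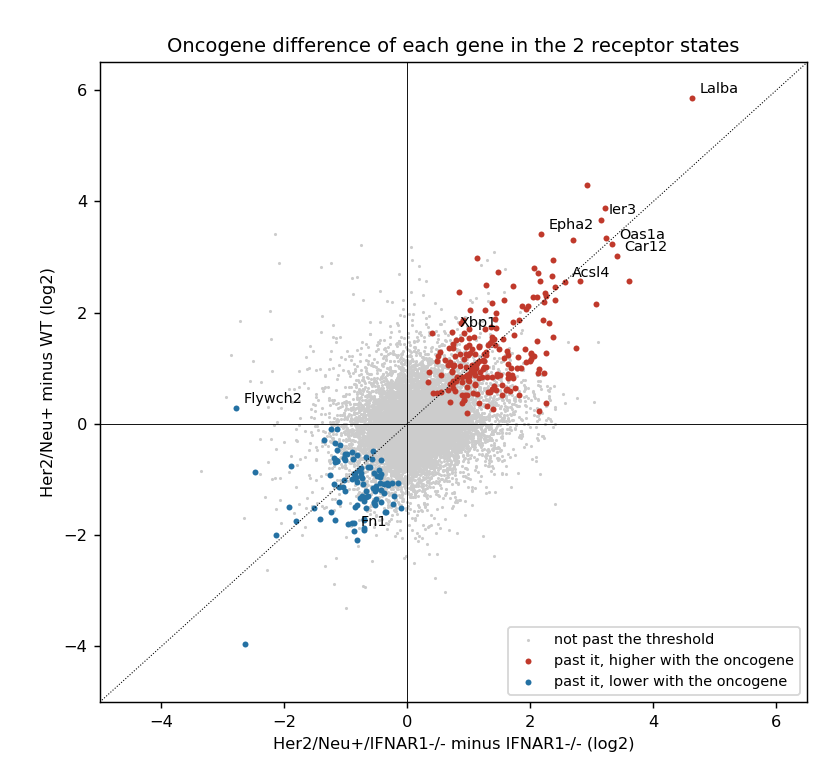
Oncogene difference of each of 11463 genes in log2 units, with Her2/Neu+/IFNAR1-/- minus IFNAR1-/- on the x axis and Her2/Neu+ minus WT on the y axis; colours mark the 196 genes that rose and the 99 that fell in the pooled comparison, and the dotted line marks equal differences. The coloured points lie at the upper right and lower left, with Flywch2 as the exception.

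Interferon-stimulated genes, which encode antiviral enzymes and their regulators, held several of the largest rises. Of 38 listed genes 33 were measured, 12 rose, none fell and 32 had a positive difference, with a median of 0.92 beside 0.07 for all genes. Of all genes tested 1.71% rose and 0.864% fell, the shares that stand beside the counts of this list and of those below. The list's median was 1.15 in Her2/Neu+ minus WT and 1.02 in Her2/Neu+/IFNAR1-/- minus IFNAR1-/-. The list was chosen with earlier results of these data known, so its count is a description. On single arrays the mean of the list, after centring each gene, ran between -0.26 and 2.19 in Her2/Neu+ and between -0.56 and 1.75 in Her2/Neu+/IFNAR1-/- glands, against -0.67 to 0.19 in WT and -1.39 to -0.64 in IFNAR1-/- glands. Oncogene arrays thus included both the highest values and values inside the WT range, such as -0.26 on Her2/Neu+ 114 and -0.56 on Her2/Neu+/IFNAR1-/- 104.

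Oas1a, a 2-5 oligoadenylate synthetase that senses double-stranded RNA, lay between -1.60 and 3.13, median 0.52, with the oncogene and between -4.64 and -0.80, median -2.45, without it. On 12 of the 15 oncogene arrays it exceeded every array without the oncogene. The difference was 3.28 ± 0.43, or 9.73-fold (adjusted p = 6.4e-05). In the receptor states apart it was 3.24 ± 0.65 with IFNAR1 and 3.33 ± 0.57 without it, an interaction of -0.09 ± 0.87 (adjusted p = 0.978). The means behind these differences, with the oncogene, were 1.46 ± 1.47 in Her2/Neu+ (SD, n = 6) and 0.31 ± 1.58 in Her2/Neu+/IFNAR1-/- glands (n = 9), and without it -1.78 ± 0.63 in WT (n = 7) and -3.02 ± 0.91 in IFNAR1-/- glands (n = 8).

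Its relative Oas1f had the largest rise outside genes with mostly repeated values. It lay between -3.04 and 2.76 with the oncogene and between -5.13 and -1.51 without it, a difference of 3.56 ± 0.48 (adjusted p = 6.97e-05). Oasl2, an oligoadenylate synthetase-like protein, lay between -1.06 and 3.44, median 0.85, with the oncogene and between -3.34 and -0.79, median -1.80, without it. That is a difference of 3.00 ± 0.40, and 13 of 15 oncogene arrays were above all others. Oas2 rose by 2.69 ± 0.48 (adjusted p = 0.00202) and Rtp4, a chaperone of membrane receptors that interferon induces, by 2.61 ± 0.46 (adjusted p = 0.00182). Probes of these related genes may bind each other's RNA, so the members are not fully separate readings. Rtp4 was above all arrays without the oncogene on 6 of 15 arrays only, since WT reached -0.14 against -1.97 at most in IFNAR1-/- glands.

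Ifit3, which binds viral RNA complexes, lay between -0.05 and 3.94, median 2.56, with the oncogene and between -0.63 and 2.17, median -0.03, without it (difference 2.17 ± 0.36, adjusted p = 0.00118), and 7 of the 15 values without the oncogene were repeated values. Apol9b, an apolipoprotein L family gene, is not on the list. It lay between -1.92 and 2.77 with the oncogene and between -2.52 and -0.94 without it, and rose by 2.43 ± 0.39 (adjusted p = 0.000738). It was one of the few genes to pass in both receptor states, with 2.80 ± 0.59 in Her2/Neu+ minus WT (adjusted p = 0.0402) and 2.06 ± 0.51 in Her2/Neu+/IFNAR1-/- minus IFNAR1-/- (adjusted p = 0.0424).

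Promoter sequence was set beside these rises, since many interferon-stimulated genes share a response element. The letters GAAA followed by GAAA with any 2 bases between them, as in such an element, were searched on both strands in the RefSeq promoter windows of mouse build GRCm38.p6, 250 bases before to 50 after a gene's start. Of the genes tested 8802 had such a window, and 323 of these (3.67%) held the letters. They were found in 12 of 150 genes that rose (8.0%), in 1 of 72 that fell (1.39%) and in 12 of 23 interferon-stimulated genes (52.2%). Within that list the letters did not separate the genes that rose, 4 of 8, from those that did not pass, 8 of 15. A match describes these letters and no binding was measured. Shown are 3 genes that rose, each as the 250 bases before its start, on the gene's strand and with the matches in capitals. The matches in Oas1a and in Gbp3 overlap each other.

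Oas1a, chr5:120907526-120907775, minus strand: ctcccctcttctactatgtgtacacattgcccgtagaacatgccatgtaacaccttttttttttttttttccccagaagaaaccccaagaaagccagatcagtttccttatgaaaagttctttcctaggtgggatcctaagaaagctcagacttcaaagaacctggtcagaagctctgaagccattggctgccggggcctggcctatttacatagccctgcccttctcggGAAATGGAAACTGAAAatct

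Ifit3, chr19:34583279-34583528, plus strand: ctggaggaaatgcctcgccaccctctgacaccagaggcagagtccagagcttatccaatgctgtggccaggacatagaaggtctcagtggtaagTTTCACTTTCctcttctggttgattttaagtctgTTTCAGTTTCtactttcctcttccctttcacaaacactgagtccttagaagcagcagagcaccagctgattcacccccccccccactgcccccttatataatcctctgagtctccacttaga

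Gbp3, chr3:142559794-142560043, plus strand: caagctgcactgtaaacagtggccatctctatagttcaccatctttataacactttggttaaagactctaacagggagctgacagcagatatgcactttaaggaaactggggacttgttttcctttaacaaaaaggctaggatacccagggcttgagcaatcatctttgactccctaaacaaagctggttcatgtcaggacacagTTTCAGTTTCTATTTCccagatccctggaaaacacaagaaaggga

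The first letters of the matches stood 20 and 14 bases before the start in Oas1a, 156 and 122 bases before it in Ifit3, and 45 and 39 bases before it in Gbp3.

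Genes that respond to interferon gamma as well, among them guanylate-binding proteins and inflammatory caspases, rose in part. Of 17 listed genes 13 were measured and 4 rose, with a median of 0.62. Gbp3, an interferon-induced GTPase, lay between -0.03 and 4.11, median 3.28, with the oncogene and between -0.94 and 3.39, median 0.06, without it, a difference of 2.20 ± 0.42 (adjusted p = 0.00469). The groups overlapped because WT glands reached 3.39, and 7 of the 15 oncogene arrays lay above that. Casp4, which senses bacterial lipopolysaccharide inside the cell, lay between -2.49 and 0.73, median -1.07, with the oncogene and between -3.82 and -1.66, median -2.65, without it. Its difference of 1.84 ± 0.27 (adjusted p = 0.000171) was 1.86 ± 0.40 with IFNAR1 and 1.82 ± 0.35 without it, with 12 of 15 oncogene arrays above all others. Casp1, which matures interleukin-1 beta, rose by 1.99 ± 0.34 (adjusted p = 0.00118). Igtp, an immunity-related GTPase read by 10 probes, rose by 1.42 ± 0.35 (adjusted p = 0.0301). Its call was lost without any 1 of Her2/Neu+ 118 or 119, WT 57, or IFNAR1-/- 44, 47 or 50 (adjusted p up to 0.053).

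Genes of MHC class I presentation did not pass one by one, although all 14 measured of 16 listed had a positive difference, with a median of 0.32. Psmb9, a subunit of the immunoproteasome, had the smallest p, with values between 0.33 and 2.80 with the oncogene, between 0.28 and 1.76 without it and a difference of 0.74 ± 0.22 (adjusted p = 0.0638). The 7 measured genes of class II presentation had a median of 0.04 and none passed. Markers of immune cells, which also express interferon-stimulated genes, gave no T and NK cell gene past the test among 12 measured (median 0.06) and no B cell gene among 6 (median 0.44). Of 12 macrophage genes, with a median of 0.03 and 6 positive differences, 1 passed. This was the growth factor receptor gene Csf1r, which fell by 0.75 ± 0.20 on the log2 scale (adjusted p = 0.0377) and lost its call in 12 of the 30 fits without 1 array. The means of the T and NK cell list on single arrays ran between -1.47 and 1.40 with the oncogene and between -1.40 and 1.16 without it. Their part in the rise of the interferon-stimulated genes was not tested.

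Transcripts that ERK signalling is known to raise formed another group among the rises. Of 23 listed ERK targets and feedback genes 20 were measured, 6 rose and none fell, with a median of 0.72, where 1.71% of all genes rose. Their array mean ran between -0.38 and 1.38 with the oncogene and between -0.88 and -0.02 without it. Ier3, an immediate early gene that limits cell death, lay between -2.92 and 1.56, median -0.66, with the oncogene and between -5.28 and -2.31, median -3.88, without it. The difference was 3.41 ± 0.45, or 10.6-fold (adjusted p = 6.4e-05), and 13 of 15 oncogene arrays lay above all others. Epha2, an ephrin receptor tyrosine kinase, lay between -3.16 and 2.23, median 1.12, with the oncogene and between -3.74 and -1.49, median -2.26, without it, with a difference of 2.79 ± 0.44 (adjusted p = 0.000513). Again 13 of 15 oncogene arrays were above all others, and the lowest, at -3.16, lay within the range of the others.

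The ETS factors Etv1 and Etv5 of the PEA3 family rose by 2.41 ± 0.45 (adjusted p = 0.00382) and by 2.04 ± 0.42 (adjusted p = 0.00959). Etv1 lay between -2.79 and 1.76 with the oncogene and between -5.34 and -1.54 without it, and 12 of 15 oncogene arrays were above all others for each gene. Both differences were close in the receptor states, 2.71 ± 0.68 and 2.12 ± 0.59 for Etv1 and 2.12 ± 0.63 and 1.97 ± 0.55 for Etv5, with IFNAR1 first. Among receptors and ligands of the ERBB family 8 of 14 listed genes were measured, with a median of 0.22, and 1 rose. This was Nrg1, neuregulin 1, a ligand of ERBB3 and ERBB4. It lay between -3.87 and -0.87, median -1.87, with the oncogene and between -5.45 and -2.19, median -3.68, without it, a difference of 1.59 ± 0.38 (adjusted p = 0.0256).

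**Figure D2:**
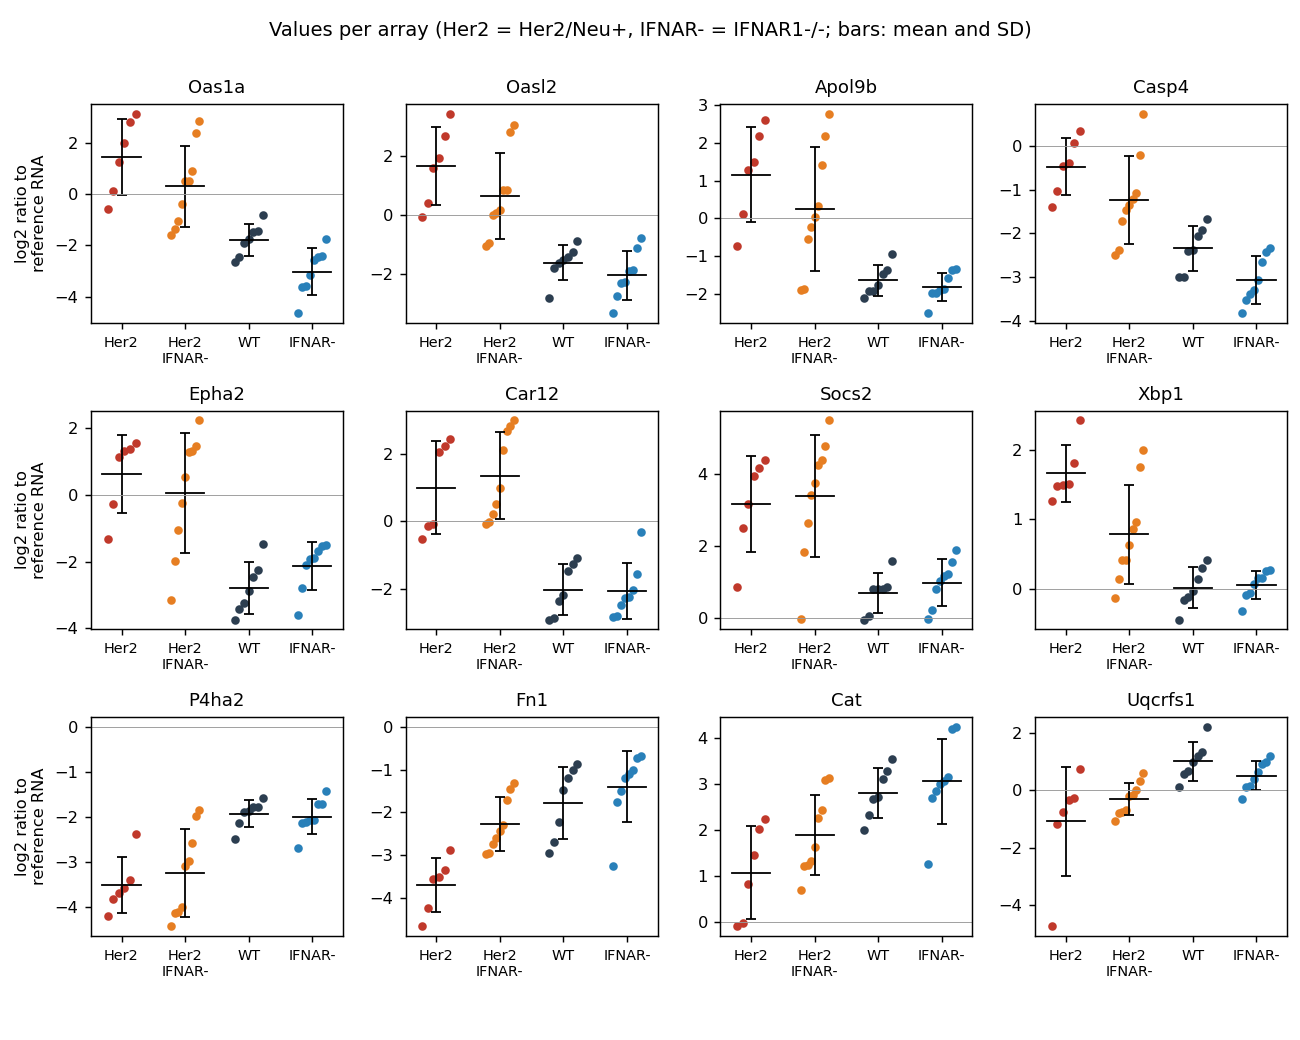
Log2 ratio to reference RNA (y axis) of 12 genes on each array, for Her2/Neu+, Her2/Neu+/IFNAR1-/-, WT and IFNAR1-/- glands on the x axis; points are arrays, sorted by value within a group, and bars give mean and SD. Oas1a, Oasl2, Apol9b, Casp4, Epha2, Car12, Socs2 and Xbp1 are higher in both oncogene groups, and P4ha2, Fn1, Cat and Uqcrfs1 lower, with overlap between the groups in each.

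Among the epithelial and secretory genes measured, single genes rose rather than whole lists. Car12, a membrane carbonic anhydrase of luminal cells, lay between -0.51 and 2.99, median 1.00, with the oncogene and between -2.90 and -0.32, median -2.22, without it. It was above all other arrays on 14 of 15 oncogene arrays, with a difference of 3.22 ± 0.39, or 9.30-fold (adjusted p = 1.82e-05), and 7 of the 15 values without the oncogene were repeated values. Epcam, an adhesion molecule of epithelial cells, lay between -0.03 and 5.81, median 3.13, with the oncogene and between -0.33 and 2.06, median 0.80, without it. Its rise of 2.10 ± 0.55 (adjusted p = 0.0388) lost its call in 12 of the 30 fits that left out 1 array, with an adjusted p up to 0.0745. Of 23 listed luminal genes 16 were measured, the other 14 did not pass, and the list's median was 0.18. None of 7 hormone-sensing genes passed either, with a median of 0.23 and 4 positive differences. Foxa1, a cofactor of the oestrogen receptor, had the smallest p among them, with a difference of -1.52 ± 0.59 (adjusted p = 0.16).

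Lalba, the gene of alpha-lactalbumin, a milk protein, stood between 5.57 and 6 on 13 arrays with the oncogene, 12 of them at the limit, against -0.08 to 4.33 on 8 arrays without it. It was the only gene whose arrays did not overlap (0.00872% of the genes tested), but 6 of the 8 values without the oncogene were repeated values and 9 of 30 arrays gave no value. Its difference of 5.25 ± 0.38 (adjusted p = 9.01e-08) is therefore no measured size. Stat5a, the factor that prolactin uses to switch on milk genes, lay between 2.37 and 4.90 with the oncogene and between 1.96 and 3.58 without it. Its rise of 0.89 ± 0.24 (adjusted p = 0.0449) lost its call in 20 of the 30 fits without 1 array. Socs2, a feedback inhibitor of prolactin and growth hormone signalling that STAT5 induces, was read by 12 probes. It lay between -0.01 and 5.47, median 3.73, with the oncogene and between -0.03 and 1.90, median 0.82, without it (difference 2.43 ± 0.42, adjusted p = 0.00133). Of 21 listed milk and secretory genes 11 were measured, the other 9 did not pass, and the list's median was 0.29. The casein genes Csn1s1, Csn2, Csn1s2a and Csn1s2b, and Wap and Elf5, were among those not measured, so nothing is shown for them.

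Chaperones and enzymes of the endoplasmic reticulum, where secreted proteins fold, had small positive differences in 25 of 27 measured genes, with a median of 0.32, and 3 rose. Xbp1, a transcription factor of the unfolded protein response and of secretory cells, lay between -0.12 and 2.42, median 1.26, with the oncogene and between -0.44 and 0.42, median 0.07, without it. The difference was 1.19 ± 0.18 (adjusted p = 0.000302). It was 1.65 ± 0.27 with IFNAR1 and 0.73 ± 0.23 without it, but the interaction of 0.92 ± 0.36 did not pass (adjusted p = 0.483). Sdf2l1, a cofactor of the chaperone BiP, lay between -2.12 and 0.00, median -0.36, with the oncogene and between -3.17 and -1.03, median -2.05, without it (difference 1.65 ± 0.24, adjusted p = 0.000253). Hsp90b1, the chaperone GRP94, rose by 0.54 ± 0.13 (adjusted p = 0.0256), a size close to the smallest called.

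Derl3, a degradation factor of the same organelle that plasma cells also use, rose by 1.66 ± 0.41 (adjusted p = 0.0271), with 4.72 on Her2/Neu+ 114 against 1.63 at most on the other oncogene arrays, and 1.27 (adjusted p = 0.0246) without that array. Of its values 9 of 15 with the oncogene and 13 of 15 without it were repeated values. With Xbp1 it made up the 2 rises among 8 measured plasma cell markers, whose list mean reached 2.23 on Her2/Neu+ 114. The part of plasma cells in these values was not tested.

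The ER stress response element, written here as CCAAT followed by CCACG with any 9 bases between them and searched on both strands in the same windows, was found in 16 of 8802 genes (0.182%). It was in 7 of 23 listed genes of endoplasmic reticulum folding (30.4%), 1 of the 3 that rose and 6 of the 20 that did not pass. Among all genes with a call it was in 2 of 150 that rose (1.33%), Hsp90b1 and Derl3, and in none of 72 that fell. Hsp90b1 is shown, with a match on each strand, the first 212 bases before the start, in capitals below.

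Hsp90b1, chr10:86705445-86705694, minus strand: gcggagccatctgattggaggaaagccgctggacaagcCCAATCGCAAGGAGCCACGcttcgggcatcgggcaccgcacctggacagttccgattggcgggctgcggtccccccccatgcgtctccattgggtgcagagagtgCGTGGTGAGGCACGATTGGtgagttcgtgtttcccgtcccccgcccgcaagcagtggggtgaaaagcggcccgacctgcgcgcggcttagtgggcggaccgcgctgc

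Some cell cycle genes rose. Of 36 listed genes 32 were measured and 4 rose, with a median of 0.52 and 27 positive differences, where 1.71% of all genes rose. Mcm2, a subunit of the replicative helicase, lay between -3.73 and 0.01, median -1.69, with the oncogene and between -5.22 and -2.22, median -3.39, without it, a difference of 1.40 ± 0.34 (adjusted p = 0.0268). Tpx2, a spindle assembly factor, rose by 1.64 ± 0.42 (adjusted p = 0.0331), Cdk1, the mitotic kinase, by 1.27 ± 0.35 (adjusted p = 0.0469), and Birc5, survivin, by 1.03 ± 0.27 (adjusted p = 0.0387). At least 50% of the values of Tpx2 on one side of the comparison were repeated values. The calls of Tpx2, Cdk1 and Birc5 were lost in 10, 22 and 12 of the 30 fits without 1 array, in each case also without Her2/Neu+ 114. The list mean was 1.68 on Her2/Neu+ 114, against 0.64 at most in the other Her2/Neu+, 0.60 in Her2/Neu+/IFNAR1-/- and 0.42 in WT glands, and without that array the median was 0.40. B cell and plasma cell marker means on the same array were 2.64 and 2.23, and their part was not tested. With probes repeated on at most 3 arrays, Birc5 had a difference of -0.14 (adjusted p = 0.882).

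Other large rises belonged to no list with a shared direction. Car6, a secreted carbonic anhydrase, lay between -1.38 and 3.68, median 1.22, with the oncogene and between -4.50 and -0.11, median -1.71, without it (difference 3.09 ± 0.47, adjusted p = 0.000302). Aldoc, a fructose-bisphosphate aldolase, lay between -2.43 and 4.39, median 2.81, with the oncogene and between -1.79 and 1.19, median -0.48, without it. On 12 oncogene arrays it was above and on 2 it was below all others, for a difference of 2.65 ± 0.62 (adjusted p = 0.0237), a call lost without IFNAR1-/- 41, 42 and 44, where the difference was 2.46 (adjusted p = 0.0563). It was the 1 rise among 16 measured glycolysis genes, whose median was -0.29. Acsl4, which attaches coenzyme A to arachidonic acid, lay between -2.45 and 4.43, median 1.88, with the oncogene and between -2.40 and -0.06, median -1.08, without it. It was above all others on 12 oncogene arrays and below them on Her2/Neu+ 114, for a difference of 2.55 ± 0.51 (adjusted p = 0.00789). Fblim1, an adaptor of actin and integrin adhesions, rose by 2.50 ± 0.50 (adjusted p = 0.00679), Bhlhe40, a repressor that dampens the clock, by 1.35 ± 0.32 (adjusted p = 0.025, but 0.0553 without IFNAR1-/- 41, 42 and 44), and Bid, a death-promoting BCL2 relative, by 1.26 ± 0.29 (adjusted p = 0.0199). At least 50% of the values of Bid on one side of the comparison were repeated values. Bhlhe40 was the 1 rise among 12 clock genes (median 0.08), and Bid was 1 of 3 among 15 genes of caspases and apoptosis (median 0.24), with Casp1 and Casp4.

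**Figure D3:**
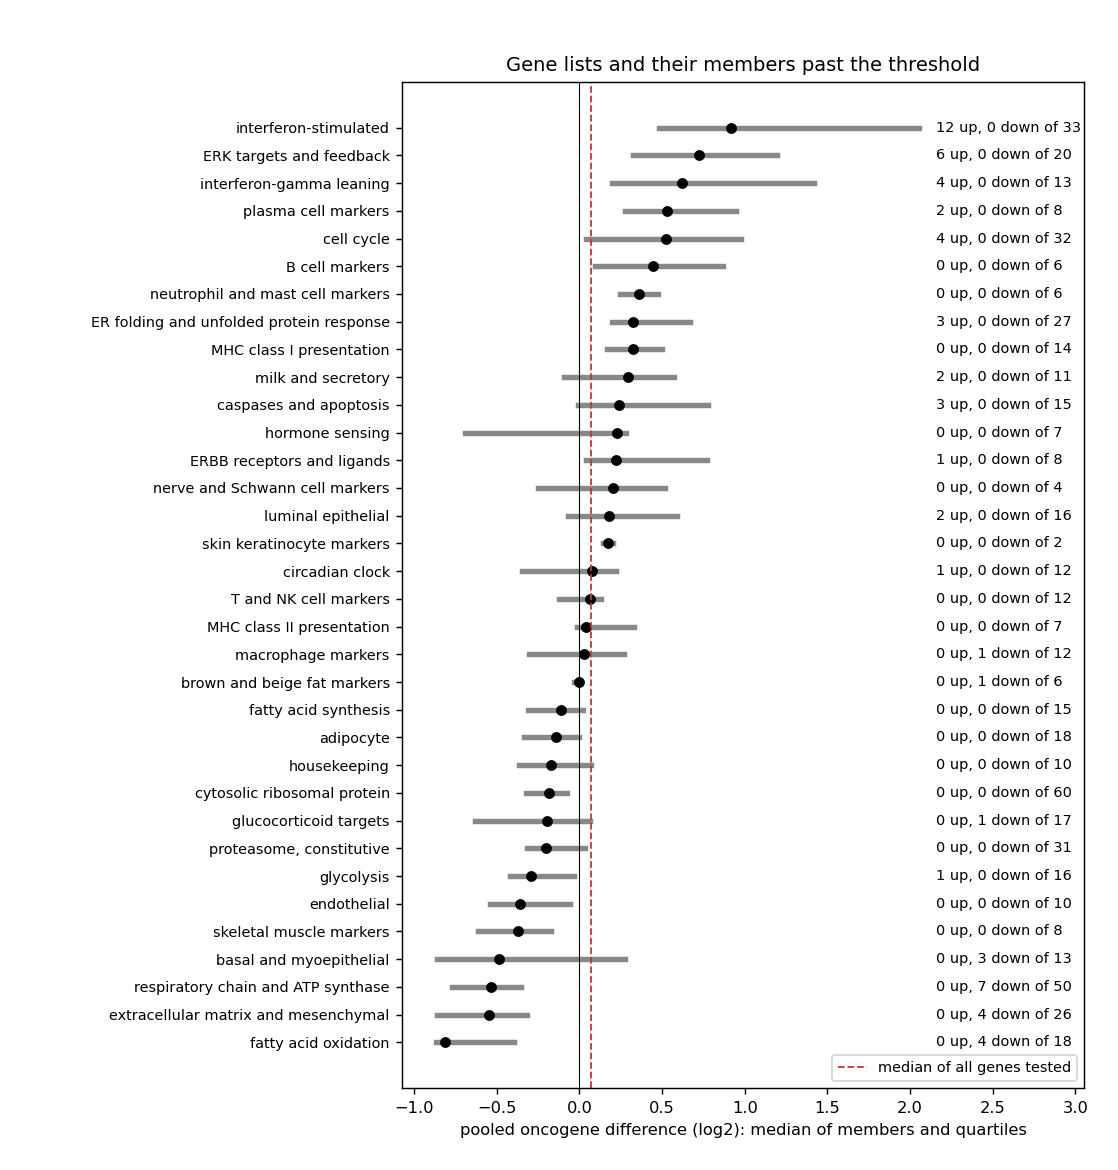
Median (points) and quartiles (bars) of the pooled oncogene difference in log2 units (x axis) for the measured members of 34 gene lists (y axis), with the members that rose and fell at right; the dashed line is the median of all genes, 0.07. Interferon-stimulated and ERK target lists lie highest, at 0.92 and 0.72, and fatty acid oxidation, extracellular matrix and respiratory chain lists lowest, at -0.81, -0.55 and -0.53.

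Mitochondrial energy genes were among the falls. For the respiratory chain and ATP synthase 50 of 52 listed genes were measured, and every one had a negative difference, with a median of -0.53. Of these 7 fell, 43 did not pass and none rose, where 0.864% of all genes fell. The list's median was -0.76 in Her2/Neu+ minus WT and -0.25 in Her2/Neu+/IFNAR1-/- minus IFNAR1-/-, beside -0.02 and 0.15 over all genes. The array mean ran between -1.34 and 0.69 in Her2/Neu+ and between -0.67 and 0.63 in Her2/Neu+/IFNAR1-/- glands, against -0.07 to 1.15 in WT and -0.34 to 0.70 in IFNAR1-/- glands, so the groups overlapped widely.

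Uqcrfs1, the iron-sulphur protein of complex III, lay between -4.74 and 0.74, median -0.33, with the oncogene and between -0.29 and 2.22, median 0.67, without it. It fell by 1.45 ± 0.35 on the log2 scale (adjusted p = 0.0256), with Her2/Neu+ 114 far below the rest at -4.74 and -1.09 without that array. Ndufb8, a subunit of complex I, lay between -1.89 and 1.18 with the oncogene and between -0.55 and 1.27 without it (difference -0.98 ± 0.22, adjusted p = 0.0179). Uqcrc2, a core subunit of complex III read by 10 probes, had -0.73 ± 0.18 (adjusted p = 0.0256), and Atp5c1, the gamma subunit of ATP synthase, had -0.81 ± 0.20 (adjusted p = 0.0303), a call lost without Her2/Neu+ 119 or WT 56 (adjusted p up to 0.0548). Cox7a1, a complex IV subunit of muscle and brown fat and the 1 fall among 6 brown fat markers, lay between 0.23 and 2.76, median 1.53, with the oncogene and between 0.54 and 4.44, median 2.76, without it (difference -1.29 ± 0.30, adjusted p = 0.0236). WT glands had the highest levels of Cox7a1, with a mean of 3.48 ± 0.80 (SD, n = 7), beside 1.93 ± 0.96 in IFNAR1-/- glands (n = 8). The 6 brown fat markers had a median of -0.002 and 3 positive differences.

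Of 18 measured genes of fatty acid oxidation 4 fell, 14 did not pass and none rose. Their median was -0.81 and 17 differences were negative, but all 4 calls were lost with the run of block numbers as a random block. Hadha, the long-chain subunit of the mitochondrial trifunctional protein, lay between -1.29 and 3.00, median -0.01, with the oncogene and between 0.50 and 5.71, median 1.68, without it. Its difference of -1.71 ± 0.40 (adjusted p = 0.0224) has 9 of 15 repeated values on the oncogene side. Its partner Hadhb lay between -0.05 and 3.13, median 2.15, with the oncogene and between 2.10 and 4.09, median 2.86, without it (difference -0.98 ± 0.24, adjusted p = 0.0301). Acaa2, the last enzyme of the cycle, had -0.86 ± 0.21 (adjusted p = 0.0262). The call of Acaa2 was lost without WT 56 (adjusted p = 0.0502), and that of Hadhb without WT 56 or Her2/Neu+ 119 (adjusted p up to 0.054). Etfb, an electron carrier from the cycle to the respiratory chain, had -0.84 ± 0.22 (adjusted p = 0.0413) and lost its call in 16 of 30 such fits.

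Among single genes outside these lists, Idh2, mitochondrial isocitrate dehydrogenase, lay between -4.52 and 0.30, median -1.14, with the oncogene and between -0.71 and 0.58, median -0.47, without it, and 12 of 15 oncogene arrays were below all others (difference -1.32 ± 0.34, adjusted p = 0.0372). Suclg1, a subunit of succinyl-CoA ligase, had a difference of -1.12 ± 0.29 (adjusted p = 0.0383). The calls of Idh2 and Suclg1 were lost in 11 and 16 of the 30 fits without 1 array. Cat, the peroxisomal catalase, lay between -0.09 and 3.12, median 1.46, with the oncogene and between 1.27 and 4.25, median 3.01, without it (difference -1.45 ± 0.31, adjusted p = 0.0127). With repeated values left out its difference was -0.52 (adjusted p = 0.182). Phyh, which starts the peroxisomal breakdown of phytanic acid, fell by 1.20 ± 0.30 on the log2 scale (adjusted p = 0.0328), a call lost in 6 of the 30 fits.

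Fat and muscle cells are rich in these transcripts, and markers of both were measured. Among 18 adipocyte genes none passed and the median was -0.14, though several of them, Adipoq included, stood at the limit of the scale, where a change cannot be seen. Among 15 genes of fatty acid synthesis none passed either, with a median of -0.11. Skeletal muscle markers had a list mean of 2.98 on Her2/Neu+/IFNAR1-/- 106, and of 3.25, 3.68 and 4.12 on IFNAR1-/- 41, 42 and 44. Without the last 3 arrays the median was -0.46 for the respiratory chain and -0.81 for fatty acid oxidation, and the calls of Cox7a1, Uqcrfs1, Uqcrc2, Atp5c1, Hadhb, Acaa2, Etfb, Idh2, Suclg1 and Phyh were lost (adjusted p between 0.0532 and 0.0839). That fit has fewer arrays and keeps Her2/Neu+/IFNAR1-/- 106. In it these genes had differences between -0.68 for Uqcrc2 and -1.33 for Uqcrfs1, against -0.73 and -1.45 with all arrays. The difference of Cox7a1 was -1.09, against -1.29 with all arrays. The calls of Hadha, Cat and Ndufb8 were kept, with differences of -1.36, -1.34 and -0.88, against -1.71, -1.45 and -0.98 with all arrays. Of the other named genes Aldoc, Bhlhe40, Birc5, Cdk1, Col1a1, Col3a1, Epcam, Gpx8, Nid1 and Sycp3 also lost their calls in that fit (adjusted p between 0.0553 and 0.0991). Ak1, a muscle-rich adenylate kinase with the largest fall that is not mostly repeated values, lay between -3.64 and -0.11 with the oncogene and between -1.71 and 1.07 without it (difference -1.51 ± 0.32, adjusted p = 0.0128). Its highest values, -0.11 with the oncogene and 0.51, 0.81 and 1.07 without it, were on those same 4 arrays. Without the 3 IFNAR1-/- arrays its difference was -1.09 (adjusted p = 0.0347). The part of fat and muscle cells in these falls was not tested.

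**Figure D4:**
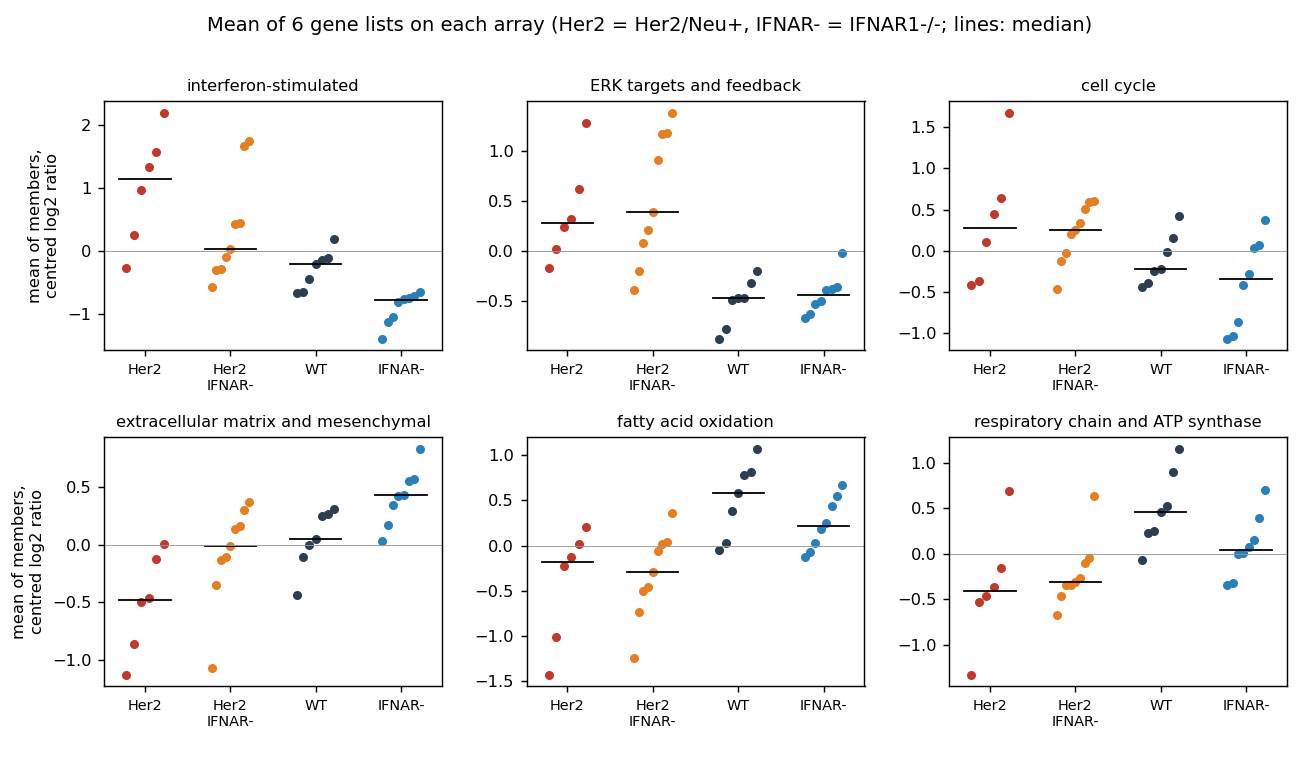
Mean of the members of 6 gene lists on each array (y axis, log2 ratio with each gene centred on its mean), for Her2/Neu+, Her2/Neu+/IFNAR1-/-, WT and IFNAR1-/- glands on the x axis; points are arrays and lines group medians. The interferon-stimulated means lie between -0.56 and 2.19 on oncogene arrays and between -1.39 and 0.19 on the others. These ranges overlap, as do those of the respiratory chain means.

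Of 26 measured genes of the extracellular matrix, which fibroblasts mainly make, 4 fell, 22 did not pass and none rose. The list's median was -0.55 and 23 differences were negative. Fn1, fibronectin, lay between -4.66 and -1.30, median -2.89, with the oncogene and between -3.25 and -0.67, median -1.18, without it (difference -1.40 ± 0.27, adjusted p = 0.00535). It was lowest in Her2/Neu+ glands, with a mean of -3.70 ± 0.64 (SD, n = 6), beside -2.27 ± 0.63 in Her2/Neu+/IFNAR1-/- glands (n = 9), while the interaction of -1.06 ± 0.54 did not pass (adjusted p = 0.528). The fibrillar collagens Col3a1, Col1a1 and Col1a2 had differences of -1.30 ± 0.35, -0.94 ± 0.26 and -0.64 ± 0.17 (adjusted p = 0.0413, 0.046 and 0.038). Col1a1 stood at -3.68 on Her2/Neu+ 114 and between -1.24 and 0.20 on the other oncogene arrays, and without that array its difference was -0.70 (adjusted p = 0.0512). The calls of Col3a1, Col1a1 and Col1a2 were lost in 15, 21 and 11 of the 30 fits without 1 array.

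P4ha2, a collagen prolyl hydroxylase outside the list, had the smallest p among the falls. It lay between -4.43 and -1.85, median -3.57, with the oncogene and between -2.70 and -1.42, median -1.88, without it, and 11 of 15 oncogene arrays were below all others. The difference was -1.41 ± 0.24 (adjusted p = 0.00118), with -1.58 ± 0.36 where IFNAR1 was intact and -1.25 ± 0.32 where it was missing. P4ha1 and Plod2, also enzymes that modify collagen and picked after their values were seen, went the opposite way. P4ha1, a sister subunit of P4ha2, rose by 1.03 ± 0.26 (adjusted p = 0.0309), with mostly repeated values on one side, and Plod2, a lysyl hydroxylase, by 1.72 ± 0.43 (adjusted p = 0.0303). The calls of P4ha1 and Plod2 were lost in 6 and 7 of the 30 fits without 1 array, and with the run of block numbers as a random block (adjusted p = 0.0904 and 0.0959). With the run as a fixed block their differences were 0.68 and 0.47 (adjusted p = 0.811 and 0.995). Nid1, nidogen of the basement membrane, lay between -2.76 and 2.16, median 1.00, with the oncogene and between 1.01 and 2.56, median 1.78, without it (difference -1.21 ± 0.29, adjusted p = 0.0256), and had -1.14 (adjusted p = 0.0594) without IFNAR1-/- 41, 42 and 44.

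Of 13 measured genes of basal and myoepithelial cells 3 fell, none rose and 10 did not pass, the keratin Krt5 among them. The list's median was -0.49, and 4 differences were positive. Tagln, a smooth muscle actin-binding protein, lay between -3.16 and 0.57 with the oncogene and between -0.72 and 1.10 without it (difference -0.99 ± 0.25, adjusted p = 0.0319), and Acta2, smooth muscle actin, had -0.86 ± 0.23 (adjusted p = 0.0416). Krt14, the basal keratin, lay between -0.09 and 1.79 on 10 arrays with the oncogene and between -0.09 and 3.52 on 14 without it (difference -1.67 ± 0.44, adjusted p = 0.0441), with 9 of the 10 and 4 of the 14 values repeated. The calls of Tagln, Acta2 and Krt14 were lost in 5, 14 and 20 of the 30 fits without 1 array. Vessels and pericytes also express Tagln and Acta2, and of 10 endothelial genes none passed (median -0.36), with -0.57 ± 0.19 for the receptor gene Kdr (adjusted p = 0.0933). The parts of these cell types in the falls were not tested.

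Further falls were spread over metabolism and signalling. Inmt, an indolethylamine methyltransferase, lay between -2.47 and 2.90 with the oncogene and between 0.23 and 3.85 without it (difference -1.39 ± 0.34, adjusted p = 0.0277), a call lost without WT 56 (adjusted p = 0.0515). Ddt, a tautomerase related to the cytokine MIF, lay between -2.49 and 1.24, median -0.06, with the oncogene and between 0.53 and 1.88, median 0.93, without it, and 11 of 15 oncogene arrays were below all others (difference -1.14 ± 0.25, adjusted p = 0.015). Gpx8, a peroxidase of the endoplasmic reticulum, had -1.13 ± 0.28 (adjusted p = 0.0301) and Cables1, which links cyclin-dependent kinases to ABL, had -1.11 ± 0.28 (adjusted p = 0.0357). Klf9, a transcription factor that glucocorticoids induce, lay between -0.44 and 2.54 with the oncogene and between 1.32 and 2.74 without it (difference -0.92 ± 0.23, adjusted p = 0.0331). It was the 1 fall among 17 glucocorticoid targets, whose median was -0.20. The calls of Gpx8, Cables1 and Klf9 were lost in 3, 13 and 8 of the 30 fits without 1 array.

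The lists of common cell machinery gave no calls. None of 60 cytosolic ribosomal protein genes passed, with a median of -0.18, none of 31 constitutive proteasome genes, with -0.20, and none of 10 housekeeping genes, with -0.17. The smallest p among them belonged to Rps19 at -0.55 ± 0.16 (adjusted p = 0.0669), Psmb7 at -0.90 ± 0.28 (adjusted p = 0.0793) and Gusb at -0.46 ± 0.19 (adjusted p = 0.196). None of 6 neutrophil and mast cell, 8 skeletal muscle, 4 nerve and Schwann cell and 2 skin keratinocyte markers passed. Their medians were 0.36, -0.37, 0.20 and 0.18. Of all genes tested only 2.57% passed, so the lack of a call in lists this short says little about their genes.

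The genes with a call did not stand apart to the same extent on each oncogene array. On a single oncogene array the share of rises above every array without the oncogene ran between 20.4% on Her2/Neu+/IFNAR1-/- 104 and 75.4% on Her2/Neu+/IFNAR1-/- 108, with both ends in the same group. The share above the median of the arrays without it was at least 74.9%. For the falls the share below every array without the oncogene ran between 11.3% on Her2/Neu+/IFNAR1-/- 103 and 74.0% on Her2/Neu+ 114, and the share below their median was lowest at 56.7% on Her2/Neu+/IFNAR1-/- 103 and 76.3% on Her2/Neu+ 115. By gene, a rise exceeded every array without the oncogene on a median of 8 of the 15 oncogene arrays, and a fall lay below them on a median of 6. These shares describe genes that the same arrays selected, and the like shares over all genes are not given. Repeated values numbered between 2712 and 10385 on single oncogene arrays, and their part in these shares was not tested.

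**Figure D5:**
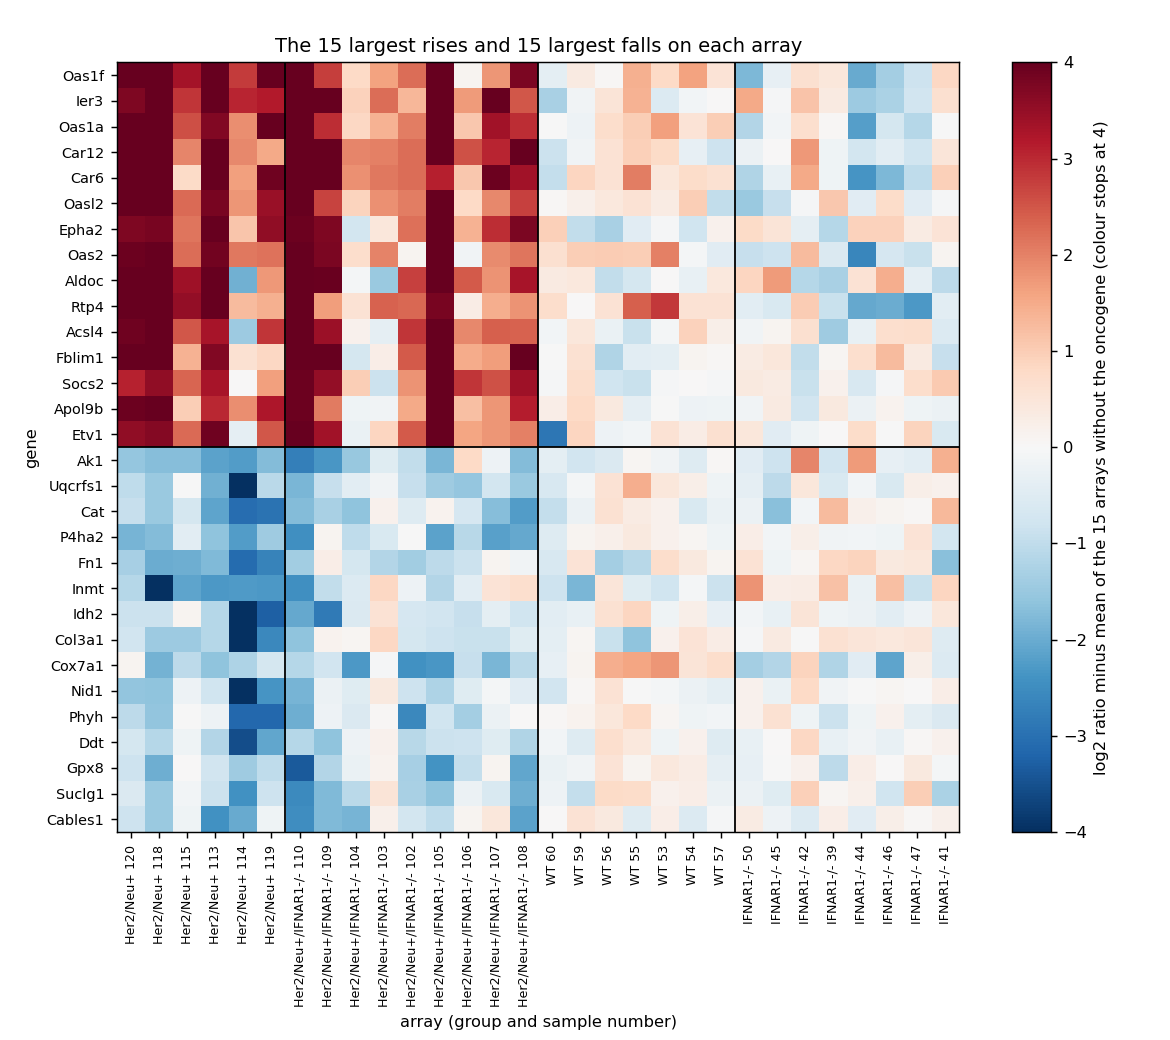
Log2 ratio minus the mean of the 15 arrays without the oncogene (colour, red above and blue below, saturated at 4) for the 15 largest rises and 15 largest falls (rows) on each array (columns, Her2/Neu+, Her2/Neu+/IFNAR1-/-, WT and IFNAR1-/- left to right). The rises are pale on several oncogene arrays, among them Her2/Neu+/IFNAR1-/- 103, 104 and 106, and the falls are deepest on Her2/Neu+ 114.

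For 74 of the 295 genes, repeated values made up at least 50% of those measured on one side of the comparison, 60 of the rises and 14 of the falls, beside 4362 of all 11463 genes. The 4 with the largest differences were Lalba, Ifit3b with 3.61 ± 0.67, Bglap2 with 3.28 ± 0.43 and Sycp3 with -3.29 ± 0.72. Ifit3b, a near copy of Ifit3, had 11 of 11 values without the oncogene repeated, and Bglap2, an osteocalcin gene, 11 of 14. Sycp3, a protein of meiotic chromosomes, had 6 of 8 repeated with the oncogene.

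The labels give each array a block number, and the order of the samples divides these numbers into 8 runs, a division inferred here. Only 2 runs held glands of both kinds. In the run with Her2/Neu+/IFNAR1-/- 102 and WT 53, 54 and 57, 157 of 195 rises and 90 of 98 falls had the pooled direction, with medians of 0.62 and -0.85, where 45.9% of all genes were positive. In the run with Her2/Neu+ 114 and 119 and IFNAR1-/- 41, 184 of 196 rises and 92 of 99 falls had it, with medians of 1.31 and -1.25, where 62.4% of all genes were positive. These arrays also entered the pooled fit, and each run compares different receptor states. A fixed block for the run takes the oncogene difference from these 2 runs alone, Her2/Neu+ 114 and IFNAR1-/- 41 included. With the run as a fixed block 122 genes passed, 23 up and 99 down, and 13 of these were among the 295. In that fit the interferon-stimulated list had a median of 0.38 and the respiratory chain of -0.92, and Oas1a had a difference of 2.28 ± 1.05 (adjusted p = 0.439). With the run as a random block 73 genes passed, all among the 295, with Oas1a, Car12, Xbp1, P4ha2 and Fn1 among them. Of the 68 genes chosen for naming 34 lost their call there (adjusted p between 0.0536 and 0.12), namely Acaa2, Acta2, Aldoc, Atp5c1, Bhlhe40, Birc5, Cables1, Cdk1, Col1a1, Col1a2, Col3a1, Cox7a1, Csf1r, Derl3, Epcam, Etfb, Gpx8, Hadha, Hadhb, Hsp90b1, Idh2, Igtp, Inmt, Klf9, Krt14, Mcm2, Nrg1, Stat5a, Suclg1, Sycp3, Tagln, Tpx2, Uqcrc2 and Uqcrfs1. Beyond these fits, run and oncogene cannot be told apart.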

How the data were processed

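Whole mammary gland RNA and a universal mouse reference RNA were hybridised together on 2-colour Agilent arrays, per the labels. The deposited values are log2 ratios of gland over reference, processed by the authors; the log base was inferred from the limit of 6, a 64-fold ratio, and the background correction and normalization are not given in the sources used here. Of 20896 probes 17376 had 1 gene symbol and 3520 had none. Named probes were kept if, in every group, 50% or more of the arrays gave a value (16247 probes), and were averaged to 11463 genes, of which 2606 had more than 1 probe. A linear model with a mean for each group was fitted over all 30 arrays in limma 3.58.1 (R 4.3.3, lmFit and eBayes), with Benjamini-Hochberg adjustment over all genes and a threshold of 0.05. The number of arrays limits the precision, and signal over background is not given by these values.

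The genes named were the 15 largest rises and 15 largest falls past the threshold, without genes whose values were repeated on at least 50% of the measured arrays on either side. To these came up to 4 members of each list with the smallest p, any gene whose arrays did not overlap, and Erbb2, Ifnar1 and Ifnar2. The comparison, the lists and the rules were chosen with earlier results of these data known. Alternatives covered normalization, filters, probes, repeated and limit values, variance models, blocks and arrays left out, and the fit was tested on simulated data. Sequences came from RefSeq. Gene symbols are those of the platform annotation, and 11418 of 11463 matched a RefSeq gene.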

Additional observations from a re-analysis of the deposited data

Results flagged for a closer look

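Of 342 groups of arrays tested over the named genes, 35 held an array whose distance from its nearest neighbour was large for the range of its group. Chance gives about 1 in 20 for independent readings without ties or limits. The groups share arrays, and some hold mostly repeated values or values at the limit, so the count cannot be read against that rate. On Her2/Neu+ 114 the log2 ratios that stood apart from the other Her2/Neu+ glands were -2.45 for Acsl4, 4.72 for Derl3, 3.02 for the neutrophil gene S100a8, 3.66 for Ifnar1, -2.37 for Acta2, -3.68 for Col1a1 and -4.74 for Uqcrfs1. On Her2/Neu+ 115 they were 5.57 for Lalba, the others being at the limit, and 3.99 for the muscle gene Myl1. Her2/Neu+ 118 stood apart at -2.47 for Inmt, Her2/Neu+ 119 at 2.355 for Bhlhe40 and -0.90 for Csf1r, and Her2/Neu+ 120 at 1.79 for Krt14.

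Among Her2/Neu+/IFNAR1-/- glands the values were 0.47 for Krt14 on 102, 1.28 for Uqcrc2 on 103, 3.00 for Hadha on 104, 4.74 for Myl1 on 106 and 1.02 for S100a8 on 110. Among WT glands they were 0.58 for Ifit3b on 53, -0.048 for Psmb7 on 54, -2.37 for Gusb and 1.16 for the Schwann cell gene S100b on 59, and 0.22 for Bglap2, -5.34 for Etv1, -2.895 for S100a8 and 0.13 for Flywch2 on 60. IFNAR1-/- 41 stood apart at -1.03 for Ifnar2, 1.53 for Etfb, -3.25 for Fn1, 0.78 for Foxa1 and -0.088 for Krt14. IFNAR1-/- 42 did so at -2.70 for Etv5, 4.31 for Kdr and 1.88 for Ddt, and IFNAR1-/- 45 at 1.303 for Gbp3.

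Flywch2 was the 1 gene of the 295 whose oncogene difference was unlike in the receptor states by a test, with an interaction of 3.06 (adjusted p = 0.0282).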

How the results depend on the processing

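Beside 295 calls (196 up, 99 down), genes past the threshold, with up and down where they moved by over 1.5 times, were 142 (112 and 30) among the genes of above-median SD, 193 (62 down) with the probe of largest SD, 218 (96 up, 122 down) with probes repeated on at most 3 arrays, 73 (55 and 18) with the run as random block, 122 (23 up, 99 down) with it as fixed block, 189 (119 up) with block position as covariate, 224 (56 down) without IFNAR1-/- 41, 42 and 44, 183 (49 down) without the last run, 43 (38 and 5) at an adjusted p under 0.01, and 171 (33 down) with a difference of at least 1. The first and second 15 arrays in sample order, fitted alone, gave 8 (6 and 2) and 769 (367 and 402). Leaving out single arrays gave 149 (without WT 53) to 438 (without Her2/Neu+ 115), with 103 to 260 up and 45 to 190 down. The total was lower by over 1.5 times also without Her2/Neu+ 113 and 119 (169 and 178), Her2/Neu+/IFNAR1-/- 105, 108 and 110 (184, 185 and 176), WT 54, 56 and 57 (185, 155 and 172) and IFNAR1-/- 39, 44, 47 and 50 (173, 155, 165 and 163). In all 30 such fits 123 genes passed, 87 up and 36 down. The 1 named result that turned was Birc5, at -0.14 with probes repeated on at most 3 arrays. The cause of these moves was not tested, except that fewer arrays or genes entered some fits. Among the 295, direction was kept in each alternative by all genes tested except 1 of 208 with repeated values left out, 1 of 144 with those probes, and 4 of 293 with the fixed block. No paired analysis was possible because the groups share no sample numbers. Values near 0 that repeat within an array, and those at the limit of 6, bound what can be measured.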
